A study of Mus musculus with 4 samples.

Results

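Nuclear pore and nuclear transport genes were followed in RNA-seq read counts from mouse pyloric stomach. They were taken as every row of the authors' deposited differential expression table whose gene symbol matches a fixed set of names, mostly those of nucleoporins, importins, exportins, Ran-cycle components, mRNA export receptors, lamins and lamina-associated envelope proteins. A match is by symbol only and takes in a few genes of other function, of which Rcc2 and Rcc1l are listed and Nupr1 and Nupr1l are not. This gave 34 of the 2701 genes in the table. The table is limited to genes at an adjusted p of up to 0.05 in the authors' DESeq2 comparison, so each of the 34 had passed that test before it could be chosen. GENCODE holds 86 protein-coding genes with matching symbols, of which the 34 are 39.5%, and the 52 without a row have no values here.

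The nuclear pore complex is a ring-shaped channel through both membranes of the nuclear envelope, built from nucleoporins in a scaffold of outer and inner rings, a membrane anchor, a cytoplasmic face and a nuclear basket. Importins carry cargo in and exportins carry it out, and the small GTPase Ran sets the direction: its exchange factor Rcc1 sits on chromatin, and its activating protein Rangap1 sits at the cytoplasmic side. The lamina lines the inner membrane. In dividing cells pores and lamina are taken apart at mitosis and rebuilt, and the number of pores grows before division.

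All mice were C57BL/6 and homozygous for floxed Lats1 and Lats2 (Lats1fl/fl;Lats2fl/fl), and all tissue was taken 8 weeks after tamoxifen. The Lats1/2 KO group (labelled Lats1/2iΔLgr5, 2 libraries) also carries Lgr5-CreER, a tamoxifen-inducible recombinase made in Lgr5-positive stem cells, while the control group (labelled WT, 2 libraries) has the floxed alleles and no Cre. An effect of losing Lats1 and Lats2 thus cannot be told apart from an effect of the recombinase. LATS1 and LATS2 are the Hippo-pathway kinases that restrain the coactivators YAP and TAZ. The sources used here give no ages and do not say that the libraries of a group came from separate mice, so p-values measure the spread between these libraries, which may be technical. RNA came from cryosections cut from where epithelium first appeared, so recombined epithelium, unrecombined epithelium and any other cells are averaged, and more cells of a type cannot be told apart from more RNA per cell.

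Listed genes held between 13413629 and 17689207 counts per library. Lats1, a targeted gene, fell from 2152 and 1974 normalized counts (counts divided by the authors' size factors) in WT to 942.5 and 1129 in Lats1/2 KO, in the direction of the labels, and Lats2 was not listed. Of 16 markers of pyloric epithelium, 9 were listed, Gkn1, Gkn2, Muc5ac, Tff1 and Lgr5 among them, and all 9 were lower in Lats1/2 KO. Their summed levels, mostly Gkn1 and Gkn2, were 4871155 and 5250910 in WT and 2715301 and 2336223 in Lats1/2 KO. However, Cdh1, Cldn18, Krt8 and Krt19 turn higher when libraries are scaled by listed totals. Lgr5 was at 58.05 and 100.4 in WT and at 25.35 and 25.79 in Lats1/2 KO. None of the markers in the T and NK, B and plasma, and smooth muscle lists had a row. Outside those lists, and picked after their values were seen, the immunoglobulin kappa gene Igkv3-2 was listed at 2.524 and 5.515 in WT and at 111.4 and 46.9 in Lats1/2 KO. Another such gene, Igkv1-99, had 21.45 and 15.44 against 65.19 and 54.71. Of 9 fibroblast markers 3 were listed, all lower, with a summed level of 10068 and 13681 in WT and 7414 and 6332 in Lats1/2 KO. The duodenal enterocyte list had 2 of 9, both lower, at 24178 and 42440 in WT and 13557 and 9865 in Lats1/2 KO, and the endothelial list 1 of 6, lower. The myeloid list had 1 of 11, Cd14, higher at 570.4 and 563.5 against 249.9 and 219.5 in WT, and the pancreatic acinar list 2 of 9, 1 in each direction. The part of other cell types in the results below was not tested.

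All 34 listed nuclear pore and transport genes were higher in the Lats1/2 KO libraries, with both Lats1/2 KO values above both WT values for each of them. Of the 13138 genes that the authors tested, a number inferred from the deposited p-values, 20.6% are listed in either direction and 8.81% are listed as higher. These shares are over tested genes, whereas the 86 are annotated genes of which an unknown number were tested. Among listed genes 42.9% were higher, and the groups of 100% of those did not overlap, so the separation of the 34 follows from their being listed as higher. The fold changes of the 34 were moderate and close to one another, running from 1.45-fold for Nup153 to 3.25-fold for Nup210 with a median of 2.01-fold. On the log2 scale their median was 1.01, against 1.09 for the 1158 listed genes that were higher and -0.50 for all 2701. Of the 34, 18 had a log2 fold change of at least 1, as did 57.5% of the listed genes that were higher, so a log2 fold change this large was no more common among the 34. The summed level of the 34 was 22932 and 22560 normalized counts in WT and 41960 and 45831 in Lats1/2 KO, a ratio of 1.93 between the groups.

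**Figure D1:**
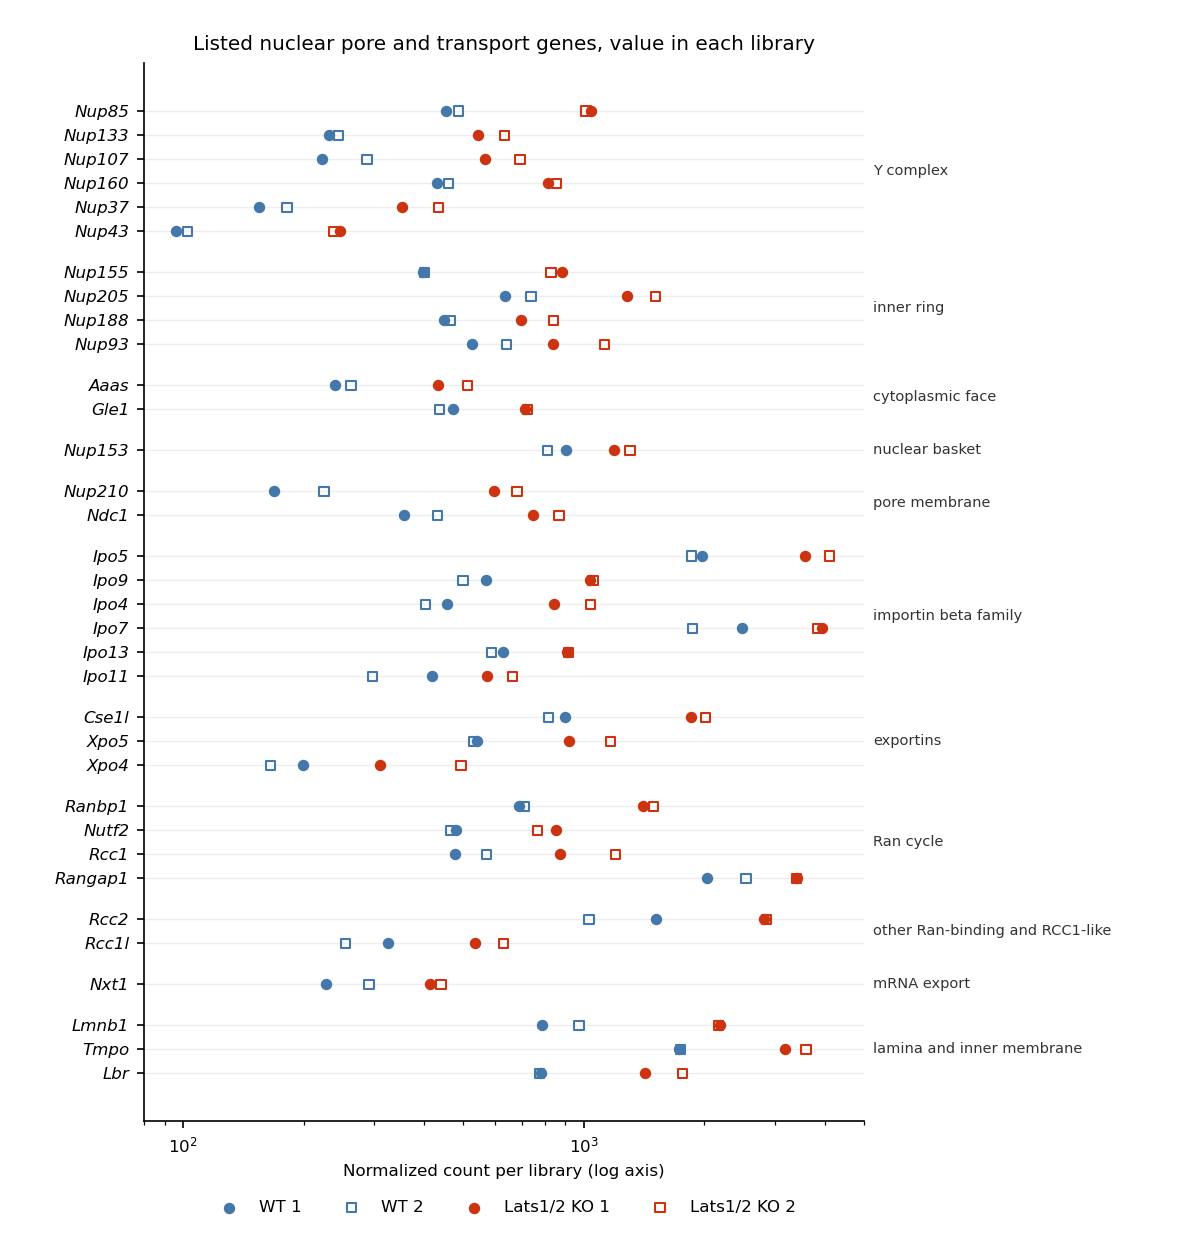
Normalized counts (log axis) of the 34 listed nuclear pore and transport genes, 1 row per gene grouped by role, with circles for replicate 1 and squares for replicate 2 of WT (blue) and Lats1/2 KO (red). In every row both red points lie to the right of both blue points.

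edgeR's quasi-likelihood test on the same counts and the authors' size factors, with Benjamini-Hochberg adjustment, also placed all 34 past its threshold of 0.05, with adjusted p from 0.0117 to 0.0266, as it did 99.9% of the listed genes that were higher. That test was run on genes already selected by the authors for a difference and is not independent of their call. With Lats1/2 KO 2 left out, 0 of the 34 passed edgeR's test after adjustment, where 0.345% of the listed genes that were higher passed. In that fit 24 of the 34 had an unadjusted p under 0.05, as did 56.2% of the listed genes that were higher. Leaving out WT 1, WT 2 or Lats1/2 KO 1 instead left 32, 30 and 26 of the 34 past the threshold, against 89.6%, 83.4% and 54.1% of the listed genes that were higher. Without Lats1/2 KO 2 the log2 fold changes ran from 0.47 to 1.60. Their direction could not turn, since both Lats1/2 KO values of each gene lay above both WT values. Lats1/2 KO 2 lay above Lats1/2 KO 1 in 27 of the 34 (79.4%), against 70.7% of all listed genes that were higher, with a median log2 ratio of 0.18 between these libraries.

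**Figure D2:**
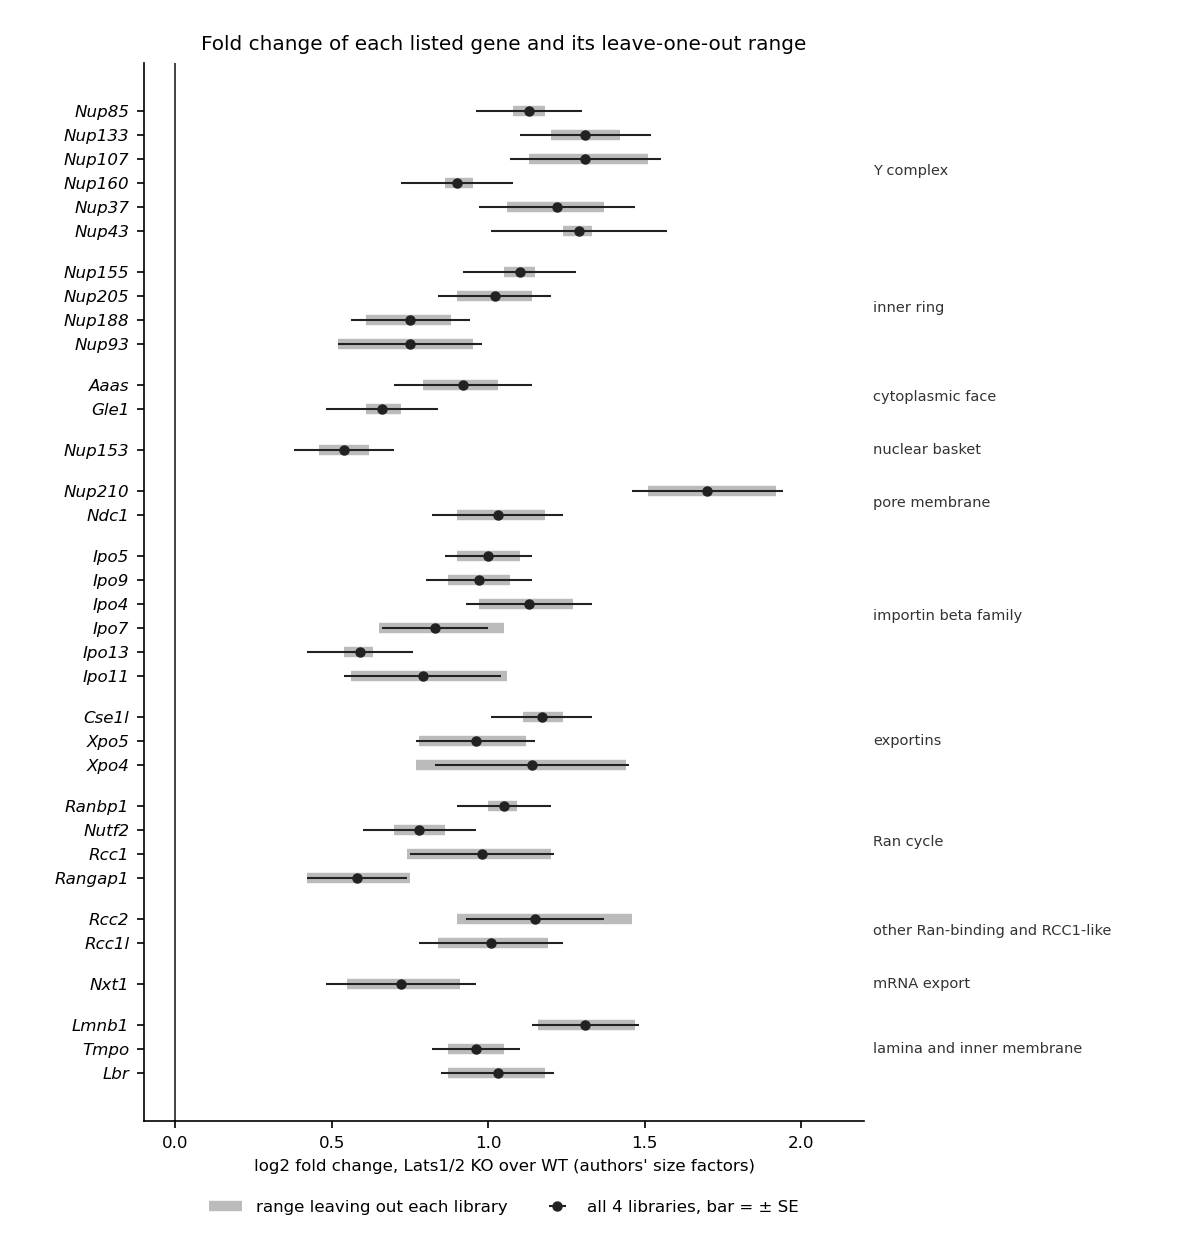
Log2 fold change of each gene, Lats1/2 KO over WT, from edgeR on all 4 libraries (points, with bars of 1 SE) and the range over the fits that leave out each library in turn (grey bands). All bands lie above 0, which follows from both Lats1/2 KO values of each gene lying above both WT values. Nup210 stands highest at 1.70 and Nup153 lowest at 0.54.

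The outer ring of the pore scaffold is the Y complex, and 6 of its 8 matching genes were listed, with a median log2 fold change of 1.25. Nup85 (ENSMUSG00000020739, chromosome 11, 115564434 to 115583985, GRCm38) was counted at 454.3 and 486.4 (normalized) in replicates 1 and 2 of WT and at 1040 and 1013 in those of Lats1/2 KO. Its mean rose from 470.3 ± 22.7 to 1027 ± 19.4 (SD, n = 2), which is 1.13 ± 0.17 (SE) as a log2 fold change, and the authors' deposited table put its adjusted p at 5.22e-07. For Nup85 the groups did not overlap, as in 100% of the listed genes that were higher.

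Nup133 (chromosome 8, 123897123 to 123949265), which forms the tip of the Y stem, was at 230.9 and 244.8 in WT and at 545.1 and 634.6 in Lats1/2 KO. The stem subunit Nup107 (chromosome 10, 117750624 to 117792705) was at 222.1 and 287.9 in WT and at 568.6 and 693.3 in Lats1/2 KO. Both had a log2 fold change of 1.31, with SE of 0.21 and 0.24, and adjusted p of 5.96e-06 and 8.83e-05 in the authors' deposited table. Within Lats1/2 KO the second library was the higher one for both genes. Nup160, Nup37 and Nup43, which complete the arms of the complex, rose 1.87-fold, 2.33-fold and 2.44-fold. Per kilobase of exon, Nup85 was the most abundant of the 6 in both groups, at 139 normalized counts in WT and 303 in Lats1/2 KO, and Nup133 the least, at 33.8 and 83.9. Seh1l and Ahctf1 match the symbol rule and were not among the listed genes, nor was Sec13, a Y complex subunit that the rule does not cover.

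Nup43 lies upstream of Lats1 on chromosome 10 (7667503 to 7678881, same strand), its end 2327 bases before the start of Lats1. It had 95.91 and 102.6 normalized counts in WT and 246.3 and 237.6 in Lats1/2 KO, 1.29 ± 0.28 (SE) as a log2 fold change, and the authors' deposited table put its adjusted p at 0.0011. Its direction was thus opposite to that of the neighbouring floxed gene, which both groups carry.

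The inner ring, which holds the scaffold to the membrane and lines the transport channel, had 4 of 5 genes listed, with a median log2 fold change of 0.89. Nup155 (chromosome 15, 8109313 to 8159857), a membrane-contacting subunit, had 397.5 and 400.4 normalized counts in WT and 883.7 and 828.5 in Lats1/2 KO, 1.10 ± 0.18 (SE) as a log2 fold change, and the authors' deposited table put its adjusted p at 3.3e-06. Nup205 (chromosome 6, 35177421 to 35247596) was at 637.3 and 737.9 in WT and at 1285 and 1512 in Lats1/2 KO. Its paralogue Nup188 (chromosome 2, 30286397 to 30344266) was at 449.3 and 464.3 in WT and at 697.2 and 841.8 in Lats1/2 KO. These 2 large scaffold genes had log2 fold changes of 1.02 ± 0.18 and 0.75 ± 0.19 (SE), and the authors' deposited table gave adjusted p of 4.36e-05 and 0.00809. Nup93, which links the inner ring to the central channel, rose 1.68-fold, and its value was the most dependent on a single library in this ring, with a log2 fold change of 0.52 without Lats1/2 KO 2 and 0.95 without Lats1/2 KO 1. Nup35 was not listed.

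Nucleoporins with phenylalanine-glycine repeats form the permeability barrier of the central channel. None of the 5 matching channel genes (Nup62, Nup54, Nupl1, Nup98 and Nup62cl) was listed, so no value can be given for them. At the cytoplasmic face 2 of 6 were listed. Aaas (chromosome 15, 102338247 to 102350759), which encodes aladin, stood at 239.8 and 262.5 normalized counts in WT and at 433.7 and 513.5 in Lats1/2 KO, with a log2 fold change of 0.92 ± 0.22 (SE). Gle1 (chromosome 2, 29935426 to 29960371), an activator of the helicase that releases exported mRNA, was at 472 and 436.8 in WT and at 711.7 and 724.5 in Lats1/2 KO, or 0.66 ± 0.18. Their adjusted p in the authors' deposited table were 0.00463 and 0.0109.

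In the nuclear basket 1 of 3 genes was listed. Nup153 (chromosome 13, 46679905 to 46727940), a docking site for importins and lamins, had 903.6 and 811.7 normalized counts in WT and 1189 and 1304 in Lats1/2 KO. This was the smallest change of the 34, with 0.54 ± 0.16 (SE) as a log2 fold change, and the authors' deposited table put its adjusted p at 0.0275. Tpr and Nup50 were not listed.

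The pore membrane proteins gave the largest change. Nup210 (ENSMUSG00000030091, chromosome 6, 91013068 to 91116829), a single-pass membrane nucleoporin known to be present in some cell types and scarce in others, had 169.1 and 225 normalized counts in WT and 597.6 and 681.5 in Lats1/2 KO. The mean went from 197 ± 39.5 to 639.6 ± 59.4 (SD, n = 2), which is 1.70 ± 0.24 (SE) as a log2 fold change, and the authors' deposited table put its adjusted p at 1.39e-07. Nup210 was lower per kilobase of exon than every listed scaffold nucleoporin in both groups, at 18.8 normalized counts in WT and 61.1 in Lats1/2 KO. Ndc1 (chromosome 4, 107367784 to 107416346), a membrane anchor that is also needed for pore assembly, was at 357.1 and 432.3 in WT and at 747 and 866.8 in Lats1/2 KO, or 1.03 ± 0.21 on the log2 scale, with 0.000351 as the adjusted p of the authors' deposited table. With 2 of 6 genes listed, this class held both the gene with the largest change and one near the median, and Pom121 was not listed.

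**Figure D3:**
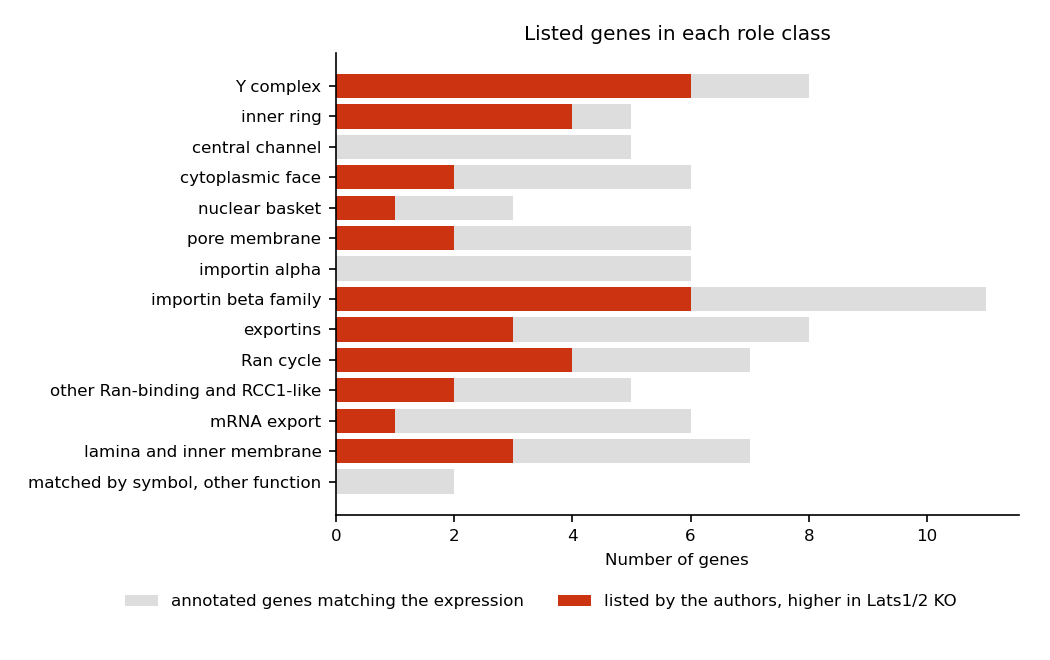
Number of annotated protein-coding genes that match the symbol rule in each role class (grey) and the number listed by the authors, all of them higher in Lats1/2 KO (red). The Y complex and the importin beta family each have 6 listed genes, while the central channel and importin alpha classes have 0 of 5 and 0 of 6. Of all genes that the authors tested, 20.6% are listed. An unknown number of the annotated genes were tested, so these counts do not compare the classes.

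To show sequence in front of the genes, promoter windows of 250 bases before to 50 after the start were taken from RefSeq (GRCm38.p6), which held windows for 29 of the 34 genes. Stretches before the start of 4 pore or envelope genes are shown, 5′ to 3′ on the gene's strand, because they hold the searched letters close to the start. Capitals mark TTTCCCGC in Nup210, CACGTG in Nup188, TTCAAA, which reads TTTGAA on the other strand, together with CCAAT in Nup37, and CCAAT in Tmpo. Nup210 covers chr6:91116830-91116946 (minus strand), Nup188 chr2:30286335-30286397 (plus strand), Nup37 chr10:88146942-88146991 (plus strand) and Tmpo chr10:91171620-91171679 (minus strand).
Nup210: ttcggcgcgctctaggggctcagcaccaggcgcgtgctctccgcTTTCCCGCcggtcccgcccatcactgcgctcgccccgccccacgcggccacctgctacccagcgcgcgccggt
Nup188: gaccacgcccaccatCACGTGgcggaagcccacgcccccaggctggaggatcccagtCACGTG
Nup37: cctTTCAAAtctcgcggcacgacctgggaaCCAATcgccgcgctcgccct
Tmpo: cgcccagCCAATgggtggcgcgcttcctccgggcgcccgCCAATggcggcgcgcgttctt

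Motifs were searched as exact letters on both strands of the whole window, with 1 window per gene for members and other listed genes. The shares over all windows count every window, and some genes have more than 1. An E2F motif (TTTGGCGC, TTTCCCGC or TTTCGCGC) was in 3 of 29 member windows (10.3%), those of Nup210, Ranbp1 and Ipo7, against 1.84% of all 32851 windows in the table and 7.46% of windows of listed genes that were higher. The cell cycle homology motif TTTGAA was in 9 of 29 (31%), against 17.9% of all windows and 18.1% of listed genes that were higher. The E-box CACGTG was in 4 (13.8%), those of Nup188, Nup93, Ipo7 and Ipo4, against 7.15% and 12.5%. CCAAT was in 11 (37.9%), against 37.4% and 43.5%, and the TEAD motif GGAATG was in 3 (10.3%), against 14.7% and 14.6%. The windows of Rcc1, Ipo4, Rcc2 and Lbr lie 7855, 2211, 932 and 645 bases from the 5′ end of the deposited gene. Member windows had a median G and C content of 64.3%, against 52.7% for all windows and 60.7% for listed genes that were higher. No test was made of these shares.

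Importins of the beta family carry cargo through the pore, and 6 of 11 matching genes were listed, with a median log2 fold change of 0.90. Ipo5 (chromosome 14, 120911194 to 120948042), a carrier of ribosomal proteins and histones, had 1967 and 1860 normalized counts in WT and 3569 and 4106 in Lats1/2 KO. The mean rose from 1913 ± 76.3 to 3838 ± 380 (SD, n = 2), which is 1.00 ± 0.14 (SE) as a log2 fold change, and the authors' deposited table put its adjusted p at 3.36e-07. Ipo9 (chromosome 1, 135382312 to 135430499), a carrier of histones H2A and H2B, was at 570.4 and 499.6 in WT and at 1039 and 1054 in Lats1/2 KO, or 0.97 ± 0.17 on the log2 scale, with 4.26e-05 as the adjusted p of the authors' deposited table.

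Ipo4 (chromosome 14, 55625400 to 55637895), which carries histones H3 and H4, stood at 456.8 and 402.6 normalized counts in WT and at 842 and 1039 in Lats1/2 KO, or 1.13 ± 0.20 on the log2 scale, with 5.33e-05 as the adjusted p of the authors' deposited table. In GENCODE 55.32% of its exonic bases are shared with the overlapping model Gm49378 on the same strand, and how such reads were assigned is not given in the sources used here. Ipo7, a carrier of ribosomal proteins, rose 1.78-fold and Ipo11 1.73-fold, and Ipo13, which works in both directions across the envelope, had a log2 fold change of 0.59. Ipo7 and Ipo11 varied more within WT, where WT 1 was the higher library for both, at 2477 against 1867 and 419 against 296.7. Per kilobase of exon Ipo5 and Ipo7 were the most abundant of the 6, at 319 and 194 normalized counts in WT and 640 and 347 in Lats1/2 KO. Kpnb1, Ipo8, Tnpo1, Tnpo2 and Tnpo3 were not listed, nor was any of the 6 importin alpha genes, Kpna2 included, which bind the classical import signal.

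Exportins had 3 of 8 genes listed, with a median log2 fold change of 1.14. Cse1l (ENSMUSG00000002718, chromosome 2, 166906040 to 166946389), which returns importin alpha to the cytoplasm, had 897.2 and 817.3 normalized counts in WT and 1850 and 2010 in Lats1/2 KO. Its mean rose from 857.3 ± 56.6 to 1930 ± 113 (SD, n = 2), which is 1.17 ± 0.16 (SE) as a log2 fold change, and the authors' deposited table put its adjusted p at 9.09e-09. Xpo5 (chromosome 17, 46202855 to 46242299), the exporter of microRNA precursors, was at 541.4 and 531.6 in WT and at 918.1 and 1168 in Lats1/2 KO, or 0.96 ± 0.19 on the log2 scale, with 0.000538 as the adjusted p of the authors' deposited table. The Lats1/2 KO libraries of Xpo5 thus differed from each other by more than the WT libraries did.

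Xpo4 (chromosome 14, 57581002 to 57665430), known as an exporter of the translation factor eIF5A, stood at 199.4 and 165.4 normalized counts in WT and at 310.6 and 494 in Lats1/2 KO. Its log2 fold change of 1.14 ± 0.31 (SE) had the widest error of the 34, beside an adjusted p of 0.0126 from the authors' deposited table. It was 0.77 without Lats1/2 KO 2 and 1.44 without Lats1/2 KO 1. A pseudogene elsewhere, Gm17873, matches 6.64% of its transcript. The general exporter Xpo1 was not listed, nor were Xpo6, Xpo7 and Xpot.

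Of 7 Ran-cycle genes 4 were listed, and they stand for different steps of the cycle. Ranbp1 (chromosome 16, 18239784 to 18248732), which helps release Ran from transport receptors so that its GTP can be hydrolysed, had 690.3 and 709.2 normalized counts in WT and 1403 and 1492 in Lats1/2 KO. The mean rose from 699.7 ± 13.4 to 1448 ± 62.7 (SD, n = 2), which is 1.05 ± 0.15 (SE) as a log2 fold change, and the authors' deposited table put its adjusted p at 3.02e-07. Rcc1 (chromosome 4, 132331919 to 132353605), the chromatin-bound exchange factor, was at 478.3 and 571.3 in WT and at 874.6 and 1202 in Lats1/2 KO, or 0.98 ± 0.23 on the log2 scale, with 0.00266 as the adjusted p of the authors' deposited table. Ranbp1 shares 16.87% of its exonic bases with the model Gm49776 and overlaps Trmt2a on the opposite strand, so its reads are uncertain to that extent. Ranbp1 was tight within groups, and Rcc1 was spread within Lats1/2 KO.

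Nutf2 (chromosome 8, 105860634 to 105880402), which brings Ran back into the nucleus, stood at 479.5 and 465.4 normalized counts in WT and at 854.7 and 767.5 in Lats1/2 KO, or 0.78 ± 0.18 on the log2 scale, with 0.00218 as the adjusted p of the authors' deposited table. Its reads are uncertain, since 91.6% of its transcript is matched at 95% identity or more by Nutf2-ps1, a near-identical copy annotated elsewhere. How reads matching both were counted is not given in the sources used here. Rangap1 stood at 2025 and 2540 normalized counts in WT and at 3409 and 3394 in Lats1/2 KO, so that the spread lay in WT. It rose 1.49-fold, and per kilobase of exon it was at 469 normalized counts in WT, above Ranbp1 at 420, and at 699 in Lats1/2 KO, below Ranbp1 at 869. Without WT 1 the log2 fold change of Rangap1 was 0.42. Ran itself was not listed.

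Rcc2 and Rcc1l share the RCC1 fold and are not nuclear transport genes in the strict sense. Rcc2 (chromosome 4, 140700541 to 140723220), which acts at mitotic chromosomes and in cell spreading, stood at 1517 and 1030 normalized counts in WT and at 2811 and 2853 in Lats1/2 KO, 1.15 ± 0.22 (SE) as a log2 fold change, and the authors' deposited table put its adjusted p at 8.39e-05. Rcc1l (chromosome 5, 134148054 to 134176774), a mitochondrial protein, was at 325.6 and 254.8 in WT and at 536 and 630 in Lats1/2 KO, or 1.01 ± 0.23 on the log2 scale, with 0.00247 as the adjusted p of the authors' deposited table. WT 1 was the higher control library for both. Their groups did not overlap, as in 100% of the listed genes that were higher.

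In mRNA export 1 of 6 matching genes was listed. Nxt1 (chromosome 2, 148672601 to 148676027), the small partner of the export receptor NXF1, stood at 227.2 and 291.2 normalized counts in WT and at 412.9 and 440.8 in Lats1/2 KO. Its log2 fold change was 0.72 ± 0.24 (SE), and the value of 0.0467 that the authors' deposited table gives as its adjusted p was the highest of the 34. Nxf1 was not listed. Of the other export factors in a wider list of 23 annotated genes, such as the THO complex and Alyref, Ddx39b alone was listed, a helicase that loads export adaptors, and it rose 1.76-fold with a log2 fold change of 0.81 ± 0.14 (SE).

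At the lamina and inner membrane 3 of 7 matching genes were listed. Lmnb1 (ENSMUSG00000024590), which encodes lamin B1, had 786.2 and 972.8 normalized counts in WT and 2184 and 2165 in Lats1/2 KO. Its mean rose from 879.5 ± 132 to 2174 ± 13.3 (SD, n = 2), which is 1.31 ± 0.17 (SE) as a log2 fold change, and the authors' deposited table put its adjusted p at 7.56e-09, the smallest of the 34. The Lats1/2 KO libraries of Lmnb1 were nearly equal, and the spread lay in WT.

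Tmpo (chromosome 10, 91147571 to 91171582), which encodes the lamina-associated polypeptides LAP2, stood at 1724 and 1744 normalized counts in WT and at 3169 and 3586 in Lats1/2 KO, or 0.96 ± 0.14 on the log2 scale, with 4.88e-07 as the adjusted p of the authors' deposited table. Lbr (chromosome 1, 181815335 to 181843046), the lamin B receptor and also a sterol reductase, was at 782.4 and 776.5 in WT and at 1423 and 1760 in Lats1/2 KO, or 1.03 ± 0.18, and that table's adjusted p was 2.5e-05. For both genes the WT libraries were almost alike and the Lats1/2 KO libraries less so. Lmna, Lmnb2, Sun1 and Sun2 were not listed, and no nesprin gene was. Genes on the opposite strand also overlap exons of Lbr, Tmpo, Nup133, Nup188, Ipo11, Rangap1, Rcc1 and Rcc1l, reaching 13.19% of the exonic bases in Rcc1l, and reads there cannot be told apart unless the counting used strand.

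Among pathway genes outside the symbol rule, 3 were listed. Besides Ddx39b, Rccd1, another gene of the RCC1 fold, stood at 25.24 and 30.88 normalized counts in WT and at 99.6 and 80.5 in Lats1/2 KO, a 3.21-fold rise. Tor1aip1, which encodes the inner membrane protein LAP1, moved the other way, from 1519 ± 63.6 to 1121 ± 18.3 (SD, n = 2), and the authors' deposited table put its adjusted p at 0.0461. Its log2 fold change of -0.44 was -0.08 with TMM scaling and 0.26 when libraries were scaled by their listed totals, so its direction depends on the scaling.

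**Figure D4:**
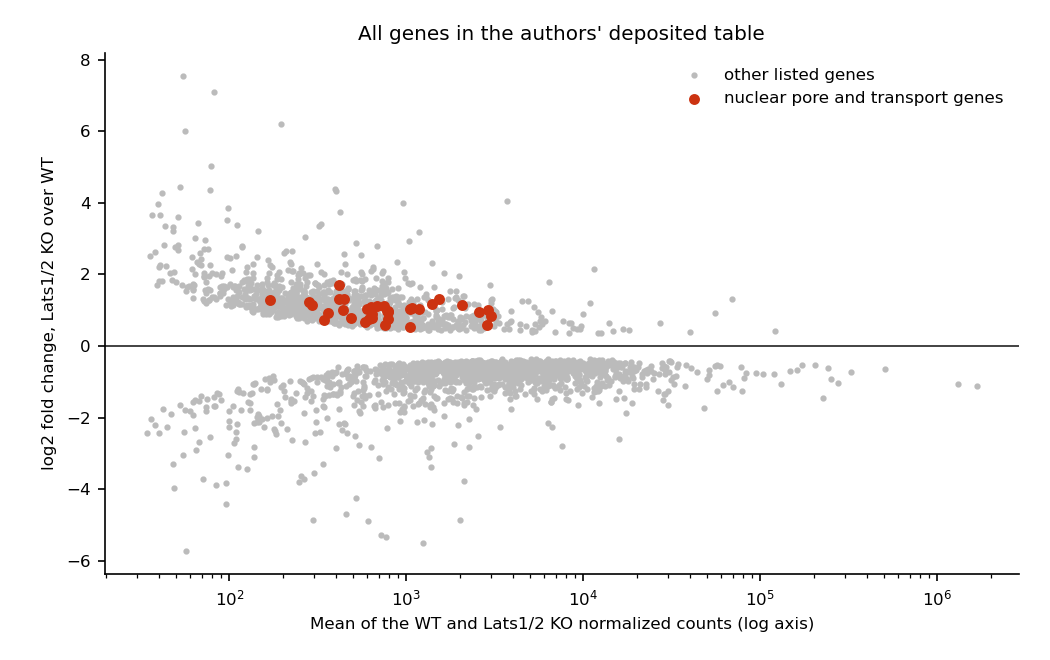
Log2 fold change, Lats1/2 KO over WT, against the mean normalized count (log axis) for genes in the authors' deposited table (grey), with the 34 nuclear pore and transport genes in red, leaving out 1 gene with no WT counts. The red points lie between 0.54 and 1.70, within the range of 0.37 to 7.53 of the listed genes that were higher.

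Markers of cycling cells were also higher in Lats1/2 KO. Of 20 such markers 19 were listed, Mki67 and Top2a among them, and all 19 were higher (median log2 1.30), Aurka being the exception with no row. Among all genes that the authors tested, 8.81% are listed as higher. The 19 markers had a summed level of 11100 and 16739 normalized counts in WT and 31756 and 35377 in Lats1/2 KO. The ratio of the group sums was 2.41 for the cycling markers and 1.93 for the nuclear pore and transport genes. Between the control libraries the cycling markers were 1.51 times as high in WT 2 as in WT 1, while the sum of the 34 genes had a ratio of 0.984. Between the Lats1/2 KO libraries the corresponding ratios were 1.11 and 1.09. The sums weigh the most abundant genes most. Taken singly, 19 of the 34 genes (55.9%) were higher in WT 2 than in WT 1, against 43.4% of the listed genes that were higher. The median log2 ratio of WT 2 to WT 1 over the 34 was 0.03. The part of cell division in the change of the 34 genes was not tested.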

How the data were processed

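Per the labels' protocols, libraries were made with a stranded mRNA kit and read from both ends. TopHat2 2.1.1, HTSeq, DESeq2 and GRCm38 are named in the submitters' processing notes, and the sources used here do not give the counting settings. The authors deposited whole-number counts per gene and library. Per the file headers they also deposited 4 DESeq2 columns used here: base mean (a signal, the mean normalized count), log2 fold change, p-value and its adjusted form.

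The authors' size factors, recovered by solving the base means for them, were 0.792 and 0.907 in WT and 1.10 and 1.28 in Lats1/2 KO, and rebuilt base means deviated by at most 0.0117%. Counts divided by these factors are the normalized counts. Log2 fold changes and SE of each gene are from an edgeR 4.0.16 quasi-likelihood fit over the whole table without a low-count filter. Genotype was the only factor, with n = 2 per group. edgeR's adjusted p are from the same kind of fit after filterByExpr. Changes given as fold are ratios of mean normalized counts. The fit was also run on simulated counts in which most genes did not differ. That setting is unlike a table of genes selected for a difference, so it does not bear on the calls. Alternatives were TMM, DESeq2 1.42.0 size factors and listed-total scaling, no filter, DESeq2's Wald test, each library left out, and the replicate number as a block. Symbols, coordinates and exon lengths are from GENCODE M21, with 1 added to deposited starts. Copies were sought with BLAST 2.17.0 (95% identity over 150 bases).

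Every listed member is named. The rule gave values in each library for the 3 of each role class with the smallest deposited adjusted p. Members, lists and tests were chosen with earlier results of these data known. A planned count of FG dipeptides in proteins was not run. Nup43, Ipo7, Ipo11 and Rangap1 got library values after they were seen.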

Additional observations from a re-analysis of the deposited data

How the results depend on the processing

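All 34 genes stayed higher under every alternative run, but no run could have turned them. Both Lats1/2 KO values of each gene lay above both WT values. Leaving out 1 library, changing the test or filter, or adding a block therefore kept the direction of these genes. The other scalings could not have turned them, since each shifted the log2 fold changes of all listed genes upward, by 0.362 for TMM, 0.406 for DESeq2 size factors from the listed genes and 0.692 for listed totals. The median log2 fold change of the 34, 1.01, became 1.37, 1.41 and 1.70, and the number with a log2 fold change of at least 1, which was 18, became 31, 31 and 34. All 34 were called by edgeR under these scalings and without the filter, and by DESeq2's Wald test. So were 99.9% to 100% of the listed genes that were higher. The authors' deposited log2 fold changes are smaller for each of the 34, at 1.56 for Nup210 and 0.52 for Nup153. Fewer than 18 of the 34 reach 1 there, with Ndc1 at 0.97, Lbr at 0.98 and Rcc1l at 0.93. Leaving out 1 library in turn gave 0 to 32 calls in place of 34 (0.345% to 89.6% of the listed genes that were higher), a median of 0.88 to 1.10, and 11 to 22 genes with a log2 fold change of at least 1; the lowest of each came without Lats1/2 KO 2, when the adjusted p ran from 0.0702 to 0.134, and the cause was not tested. Without WT 1, Nup93 and Nxt1 lost the edgeR call, without WT 2 Gle1, Nup153, Ipo13 and Ipo11, and without Lats1/2 KO 1 the same genes, Gle1, Nup153, Ipo13 and Ipo11, and also Nup43, Nutf2, Rangap1 and Nxt1.

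The labels give both groups the replicate numbers 1 and 2 but do not say that a number marks a shared mouse, litter or day. With the replicate number as a block, 33 of the 34 passed edgeR's test, the exception being Nup153, as did 93.6% of the listed genes that were higher, with a median of 1.01 and 18 genes at a log2 fold change of at least 1. The deviations of same-numbered libraries correlated at -0.16 across listed genes and at 0.0851 across the 34. With the crossed pairing, added after seeing the data, 34 passed, as did 98.6% of the listed genes that were higher. The 2 libraries per group limit the precision of each value, and members without a row cannot be called unchanged.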
